A study of Arabidopsis thaliana with 222 samples.

Results

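The core cell cycle genes of *Arabidopsis thaliana* were followed in roots that grew with single bacterial strains or without bacteria. The set held 55 genes, chosen by a list of gene identifiers: 8 B-type, 7 A-type and 9 D-type cyclins, 4 B-type cyclin-dependent kinases (CDKs) and CDKA;1 (AT3G48750), 7 KRP inhibitors with SIM (AT5G04470) and SMR1 (AT3G10525), 6 genes of the E2F, DP and RBR1 (AT3G12280) network, 7 DNA replication genes, and 4 genes for activators of the anaphase-promoting complex (APC/C) and an Aurora kinase. They were 55 of the 32311 genes of the count matrix, and all 55 were among the 21635 genes that passed the filter on low counts.

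RNA was sequenced from roots in 222 libraries, 6 for each of 37 groups. Seedlings grew for 7 d without microbes, were moved to plates with 1 bacterial strain or with a buffer and no bacteria (NB, axenic), and the roots of several plants per library were harvested 7 d later. The *arf7 arf19* double mutant has insertions in 2 auxin response factors that act at the start of lateral root formation, and it was grown with L344 or NB. The *nph4-1* line is mutated in ARF7 alone and was grown with L344, L359, RCL115 or NB. The *lbd16-1* line has an insertion in LBD16, a transcription factor downstream of these auxin response factors, and was grown with NB or with RMF8, RMF217, L76, L412, L384, L359, L343 or L180. The *gnom184* line has a mutant allele of GNOM, a vesicle trafficking regulator needed for polar auxin transport, and was grown with L196, L339, L469, RMF27 or NB. The wild type Col-0, whose background all mutants share, was grown with L180, L196, L264, L339, L343, L344, L359, L384, L412, L469, L76, RCL115, RMF217, RMF27, RMF331, RMF8 or NB. The whole root was sampled, so fewer dividing cells and less RNA per dividing cell cannot be told apart.

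In plant cells, D-type cyclins bind the A-type CDK and relieve the block that RBR1 places on E2F transcription factors, which opens the way to DNA replication. A- and B-type cyclins, with this kinase and the plant-specific B-type CDKs, then carry cells into and through mitosis, and KRP and SIM/SMR proteins inhibit these kinases. In roots these genes are most active in the meristem and in young lateral root primordia, while CCS52A proteins and SIM/SMR inhibitors accompany the exit into endoreduplication, in which DNA is copied without division.

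Library totals were between 10255732 and 29735838 counts (median 18434824). Values are given as CPM, the usual normalised count per library, scaled by TMM, which is edgeR's correction for RNA composition. ARF7 was at 28.6 to 32.7 CPM in the 12 *arf7 arf19* libraries and 47.7 to 61.5 CPM in the 24 *nph4-1* libraries, against 58.7 to 113 CPM in the 102 Col-0 libraries. ARF19 was at 7.45 to 11.7 CPM in *arf7 arf19* libraries, against 26.1 to 68.2 CPM in Col-0 libraries. The ranges of LBD16 (1.96 to 4.74 CPM in *lbd16-1*, 3.6 to 10.8 CPM in Col-0) and of GNOM (70.9 to 118 CPM in *gnom184*, 71.5 to 129 CPM in Col-0) overlapped. Replicate 5 of Col-0 NB stood apart: 178 of 15600 genes above 5 CPM lay over 2-fold from the mean of the other 5 libraries, against 143 for replicate 1 and 23 to 42 for the other 4. In replicate 5, 38 of the 55 members were above the mean of the other 5 libraries. Replicate 3 also leaned high, with 41 members above that mean, against 19 to 24 in the other 4. These 6 libraries are the control of all 16 Col-0 contrasts, and they enter all contrasts between mutants and Col-0. Calls given here that were lost without replicate 5 are therefore named as such.

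Per kilobase of transcript in Col-0 NB, the most abundant members were SIM at 56.7 ± 7.56 CPM per kb, AT3G48750 at 37.6 ± 4.29 and CYCD3;1 (AT4G34160) at 27.4 ± 2.33 CPM per kb (SD, n = 6). The lowest were CYCD4;2 (AT5G10440) at 0.897 ± 0.204 CPM per kb and CYCA2;1 (AT5G25380) at 0.577 ± 0.109 CPM per kb. Across the 37 groups, the level of AT3G48750 and of the transcription factor E2FB (AT5G22220) spanned only 1.2-fold between the lowest and the highest group mean. The widest spans were those of 1 D-type cyclin (4.03-fold), 2 B-type cyclins (3.5-fold and 3.28-fold) and CDC20.1 (AT4G33270), at 3.24-fold. CDC20.1 and both B-type cyclins had their lowest group mean in *arf7 arf19* with L344 and their highest in *gnom184* with RMF27.

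Each strain was compared with NB of the same genotype by edgeR's quasi-likelihood test, and a gene was called at a Benjamini-Hochberg adjusted p under 0.05 over all tested genes. In the 16 mutant contrasts, 104 of 880 pairs of a member and a contrast were called higher (11.8%, against 12.9% of pairs over all tested genes) and 53 were called lower (6.02%, against 10.8%). In the 16 Col-0 contrasts, 92 of 880 pairs were called higher (10.5%, against 12.6%) and 89 lower (10.1%, against 12.8%). The shares over all strains were thus at or below the background. The calls of mutants were concentrated in a few groups, and those of Col-0 were spread over most strains. In *gnom184*, 28 members rose with L196, 27 with L339 and 30 with RMF27. Over all tested genes 18.7%, 18.9% and 32.7% rose in these 3 contrasts, against 50.9%, 49.1% and 54.5% of members. Only 1, 5 and 5 members fell there (17.3%, 14.9% and 28.8% of all tested genes). With L469, 3 members of *gnom184* rose and 5 fell (15.9% and 12.5% of all tested genes). In *arf7 arf19* with L344, 4 members rose and 21 fell (19.6% and 14.8% of all tested genes). The member medians of the log2 fold change were 0.22 with L196, 0.24 with L339, -0.02 with L469 and 0.29 with RMF27 in *gnom184*, and -0.13 with L344 in *arf7 arf19*. The 4 *gnom184* contrasts share 6 NB libraries. In Col-0, RCL115 gave 0 calls in edgeR and in DESeq2 (9 members at an unadjusted p under 0.05), in a contrast where 0.143% of all tested genes were called higher and 0.31% lower. The library numbers fall into a low range, up to 111, and a high range, from 112, with 3 libraries of each group in each. The titles of 2 libraries leave their numbers open between the same 2 values of the low range. These were replicate 6 of *gnom184* with L196 and replicate 6 of *arf7 arf19* with L344. Without them, 26 members rose in the first of these contrasts and 22 fell in the second. With the range of the library number as a covariate, 107 pairs were called higher and 55 lower in mutants, and 96 and 91 in Col-0.

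**Figure D1:**
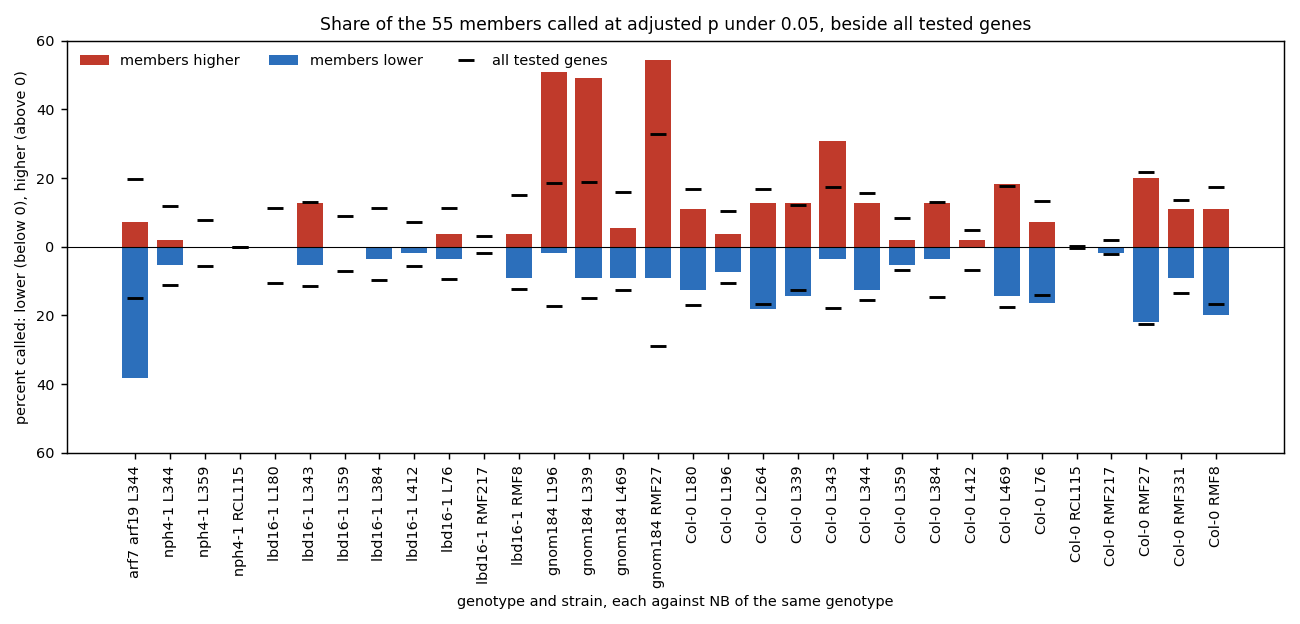
Percent of the 55 members called higher (above 0) and lower (below 0) at adjusted p under 0.05 in each of 32 contrasts of a strain with NB of the same genotype. Dashes mark the same shares over all 21635 tested genes. The bars pass the dashes most clearly for rises in *gnom184* with L196, L339 and RMF27 and for falls in *arf7 arf19* with L344.

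Whether a strain acted differently in a mutant and in Col-0 was tested as an interaction, the log2 fold change in the mutant minus that in Col-0. Over 16 such contrasts, 52 of 880 pairs were called higher in the mutant (5.91%, against 2.94% over all tested genes) and 15 lower (1.7%, against 2.46%). The higher calls lay mostly in *gnom184*: 11 members with L196 (3.91% of all tested genes were called), 16 with L339 (9.91%) and 22 with RMF27 (11.8%). Members called lower numbered 0 with L196 and 0 with L339 (2.84% and 6.67% of all tested genes), and 1 with RMF27 (11.1%). Without Col-0 NB replicate 5, the higher calls were 4 with L196 and 5 with L339, and 30 of 880 pairs in all, while the count with RMF27 stayed between 19 and 25 under removal of any 1 NB library. With L469, 0 members were called by edgeR or by DESeq2, and 9 had an unadjusted p under 0.05 in edgeR (1.22% of all tested genes were called higher and 0.587% lower). In *arf7 arf19* with L344, 1 member was called higher and 14 lower than in Col-0 (8.8% and 6.24% of all tested genes). In *nph4-1* and *lbd16-1*, edgeR called 0 members in 9 of 11 interactions (2 to 15 at an unadjusted p under 0.05, 0 by DESeq2). Of all tested genes, at most 2.16% were called higher and at most 2.45% lower in any of these 9, so a count of 0 among 55 was near the background. The D-type cyclin AT5G67260 was the single member called in the remaining ones, *lbd16-1* with L180 (0.44, adjusted p = 0.0483) and with L359 (0.46, adjusted p = 0.0365), and these calls were lost without Col-0 NB replicate 5 (0.18 and 0.2).

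**Figure D2:**
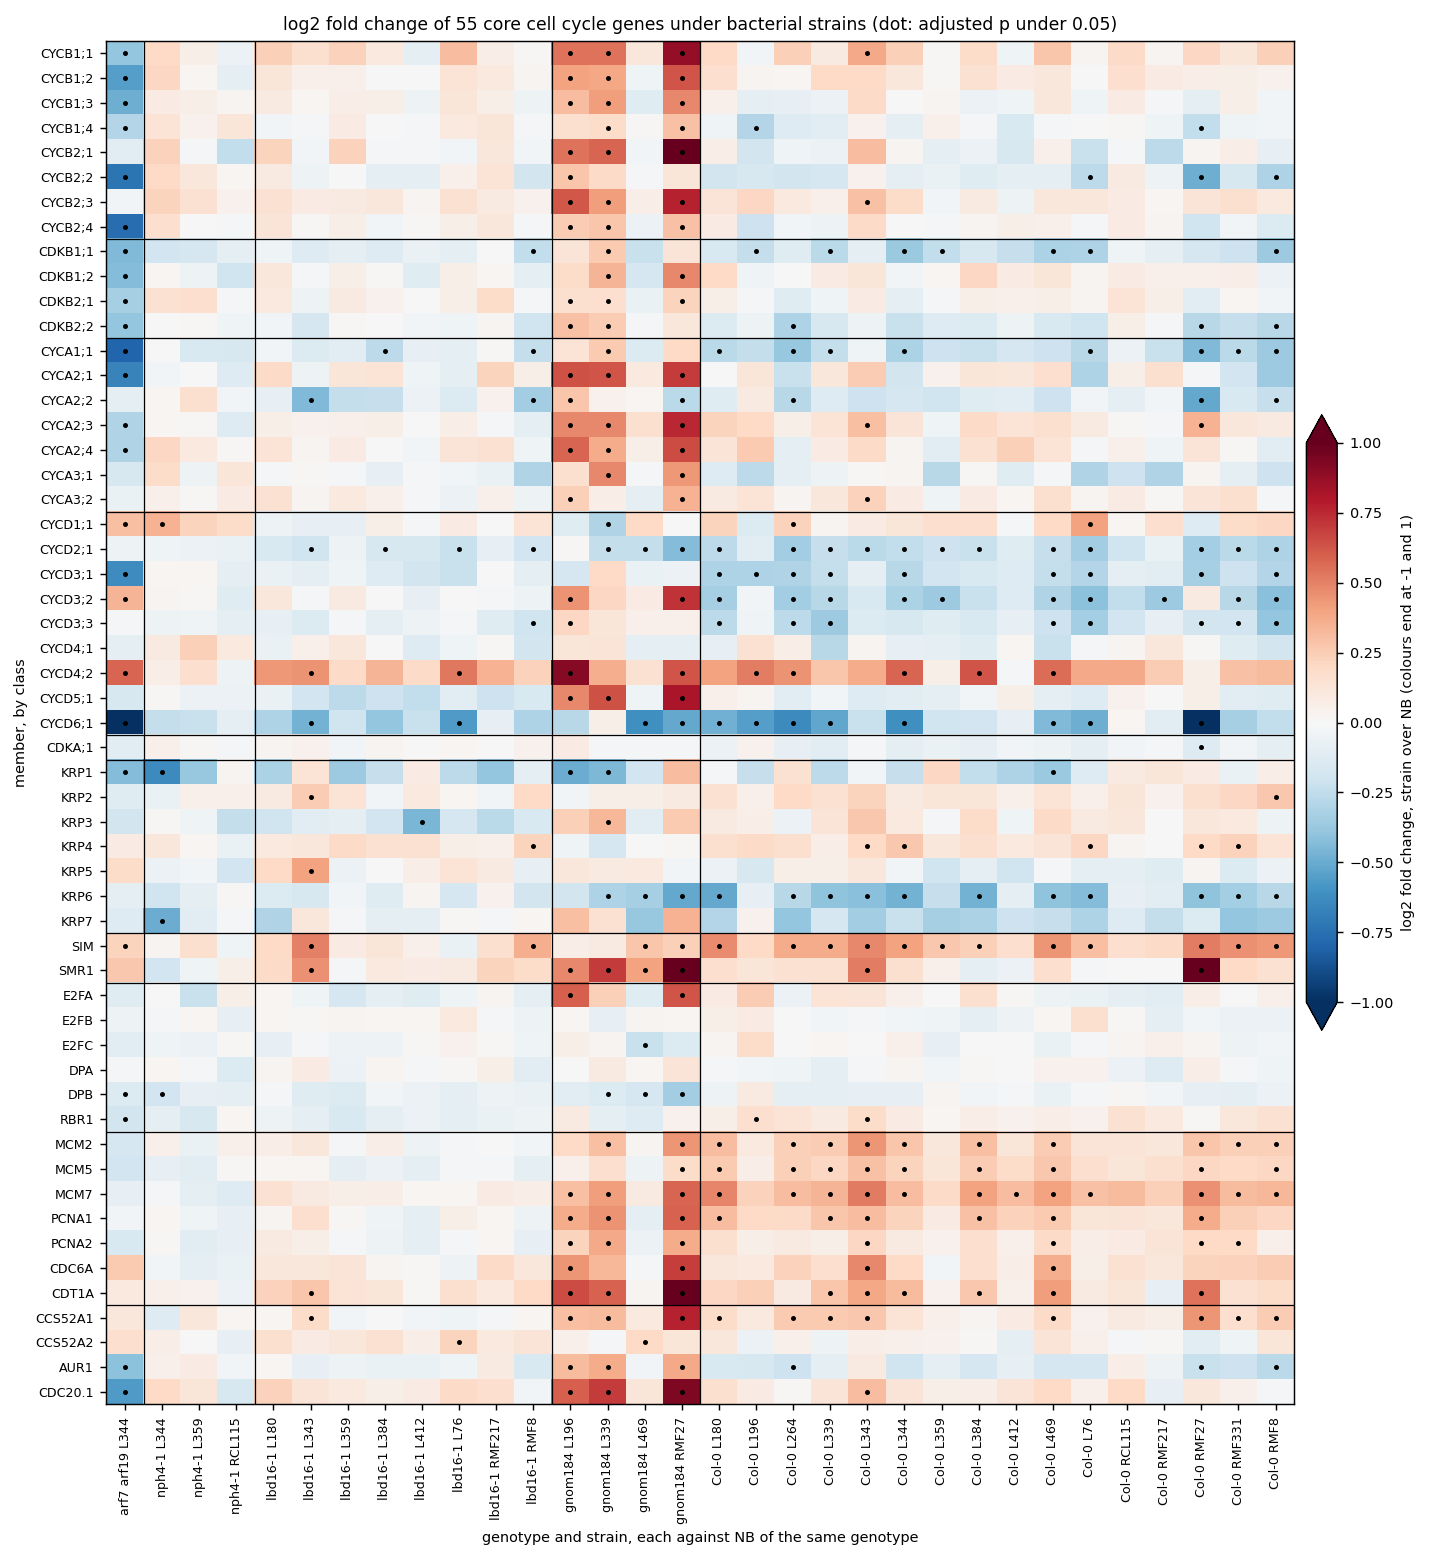
log2 fold change of each member (rows, by class) in each mutant and Col-0 contrast of a strain with NB of the same genotype (columns), with colours ending at -1 and 1 and a dot where the adjusted p is under 0.05. Rises of cyclins and replication genes fill the *gnom184* columns L196, L339 and RMF27, falls of B- and A-type cyclins fill the *arf7 arf19* column, and the MCM, SIM and KRP6 rows hold dots across the Col-0 columns.

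The B-type cyclins, which drive entry into mitosis, rose in *gnom184* with 3 strains and fell in *arf7 arf19* with another. All but 1 of the 8 rose in *gnom184* with each of L196, L339 and RMF27, 0 of 8 were called with L469 (0 also at an unadjusted p under 0.05 and by DESeq2), and 6 of 8 fell in *arf7 arf19* with L344. The class medians were 0.35, 0.4, -0.02 and 0.56 on the log2 scale for L196, L339, L469 and RMF27, and -0.44 for L344 in *arf7 arf19*. No strain was given to both mutants, so genotype and strain cannot be told apart between them. In the 16 Col-0 contrasts, 2 of 128 pairs of this class were called higher and 5 lower (1.56% and 3.91%, against 12.6% and 12.8% of pairs over all tested genes). Of the 8 genes, 6 held the word AACGG in the 250 bases upstream of the annotated start. AACGG is the core of the mitosis-specific activator element that MYB3R factors bind. This is 75% of the class, against 36.4% of the 55 members and 20.6% of 27561 protein-coding genes. The sequences of 3 of these genes are shown because 2 of them had the widest spans of the class and AT5G06150 had the closest correlation with another member. They are read 5′ to 3′ from RefSeq's TAIR10.1 assembly, with AACGG, or CCGTT where the word lies on the other strand, in capitals. In the order shown, AT4G37490 lies on the minus strand with its window at chr4:17624309-17624558, AT5G06150 on the minus strand at chr5:1861704-1861953 and AT2G17620 on the plus strand at chr2:7663805-7664054.
CYCB1;1: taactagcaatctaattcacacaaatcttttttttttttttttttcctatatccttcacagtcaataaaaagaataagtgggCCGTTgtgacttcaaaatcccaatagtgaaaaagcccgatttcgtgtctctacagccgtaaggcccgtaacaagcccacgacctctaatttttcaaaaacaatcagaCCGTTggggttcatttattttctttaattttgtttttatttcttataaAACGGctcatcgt
CYCB1;2: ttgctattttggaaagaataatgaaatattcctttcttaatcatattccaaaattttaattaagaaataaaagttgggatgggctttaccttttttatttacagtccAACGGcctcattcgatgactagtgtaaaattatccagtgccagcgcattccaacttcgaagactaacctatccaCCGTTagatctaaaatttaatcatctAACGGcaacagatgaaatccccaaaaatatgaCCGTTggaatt
CYCB2;1: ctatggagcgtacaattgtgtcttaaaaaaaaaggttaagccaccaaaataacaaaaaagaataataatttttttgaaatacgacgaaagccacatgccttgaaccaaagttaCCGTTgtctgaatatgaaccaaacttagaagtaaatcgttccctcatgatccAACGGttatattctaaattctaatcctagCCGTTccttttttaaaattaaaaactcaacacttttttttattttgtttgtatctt
The first and the third held 3 words each and AT5G06150 held 4, whereas AT2G26760 and AT1G76310, of the B1 and the B2 group, held none in this window. A match is a description of the sequence and not evidence of a binding site.

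CYCB1;1 (AT4G37490), the cyclin most used as a marker of cells at the G2-to-M transition, was at 8.8 to 13.1 CPM (median 11) in *gnom184* with RMF27, against 4.99 to 7.3 CPM (median 5.64) in *gnom184* NB. The 2 groups did not overlap, and the log2 fold change was 0.88 ± 0.12 (SE, adjusted p = 1.43e-10). With L339 it was at 7.77 to 9.34 CPM (median 8.81), again above every NB library. With L196 it was at 6.92 to 10.8 CPM (median 8.73), which overlapped NB, and the log2 fold change was 0.54 under both strains (adjusted p = 0.000171 for L196 and 0.000252 for L339). With L469 it was at 5.29 to 8 CPM (median 6.38), a log2 fold change of 0.11 ± 0.13 that did not pass the test (adjusted p = 0.568). L344 in *arf7 arf19* left it at 2.77 to 4.1 CPM (median 3.22), against 3.91 to 5.18 CPM (median 4.48) in *arf7 arf19* NB, and it fell by 0.39 on the log2 scale (adjusted p = 0.0197). In Col-0 it was called with L343, where it rose by 0.38 ± 0.13 (adjusted p = 0.0106). That call was lost when only the groups of the contrast were fitted (0.36, adjusted p = 0.0822), and without Col-0 NB replicate 5 a call with L469 was added (0.35, adjusted p = 0.0296).

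CYCB2;1 (AT2G17620) was at 3.75 to 5.05 CPM (median 4.31) in *gnom184* with RMF27, against 1.55 to 2.67 CPM (median 2.1) in *gnom184* NB. Every RMF27 library was above every NB library, and the log2 fold change of 1.03 ± 0.15 (SE, adjusted p = 3.03e-10) was the largest of the B-type cyclins. The same strain gave 2.72 to 3.89 CPM (median 3.19) in Col-0, against 2.09 to 4.97 CPM (median 2.78) in Col-0 NB, which overlapped (log2 fold change 0.03 ± 0.14, adjusted p = 0.88). The interaction was 1 ± 0.21 (adjusted p = 6.64e-05), and 0.81 (adjusted p = 0.00164) without Col-0 NB replicate 5. CYCB2;3 (AT1G20610), a cyclin of the same group, was at 14.4 to 19.1 CPM (median 16.1) in *gnom184* with RMF27, against 8.84 to 11.4 CPM (median 9.47) in NB, with no overlap (log2 fold change 0.77 ± 0.09, adjusted p = 3.11e-14). It shares 19.6% of its 31-base words with a related gene, AT1G20590.

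CYCB2;4 (AT1G76310) and CYCB2;2 (AT4G35620) carried the largest falls of the class in *arf7 arf19* with L344. AT1G76310 was at 5.93 to 8.31 CPM (median 6.5) with L344, against 8.89 to 13.4 CPM (median 11.2) in NB, with no overlap and a log2 fold change of -0.76 ± 0.09 (SE, adjusted p = 7.66e-13). AT4G35620 was at 4.38 to 6.14 CPM (median 5.78) with L344, against 7.45 to 10.7 CPM (median 9.22) in NB, again with no overlap (log2 fold change -0.73 ± 0.1, adjusted p = 2.82e-10). In Col-0, L344 left AT1G76310 at 9.28 to 12 CPM (median 10.6), against 9.79 to 12.1 CPM (median 10.3) in NB, which overlapped (log2 fold change 0 ± 0.09, adjusted p = 0.99). The interaction of AT1G76310 was -0.76 ± 0.13 (adjusted p = 1.91e-06), with -0.95 and -0.47 when computed within the low and the high range of library numbers. AT4G35620 fell also in Col-0 with RMF27, to 5.42 to 6.97 CPM (median 6.39), against 7.91 to 10.1 CPM (median 8.54) in Col-0 NB with no overlap (log2 fold change -0.49 ± 0.1, adjusted p = 1.44e-05).

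**Figure D3:**
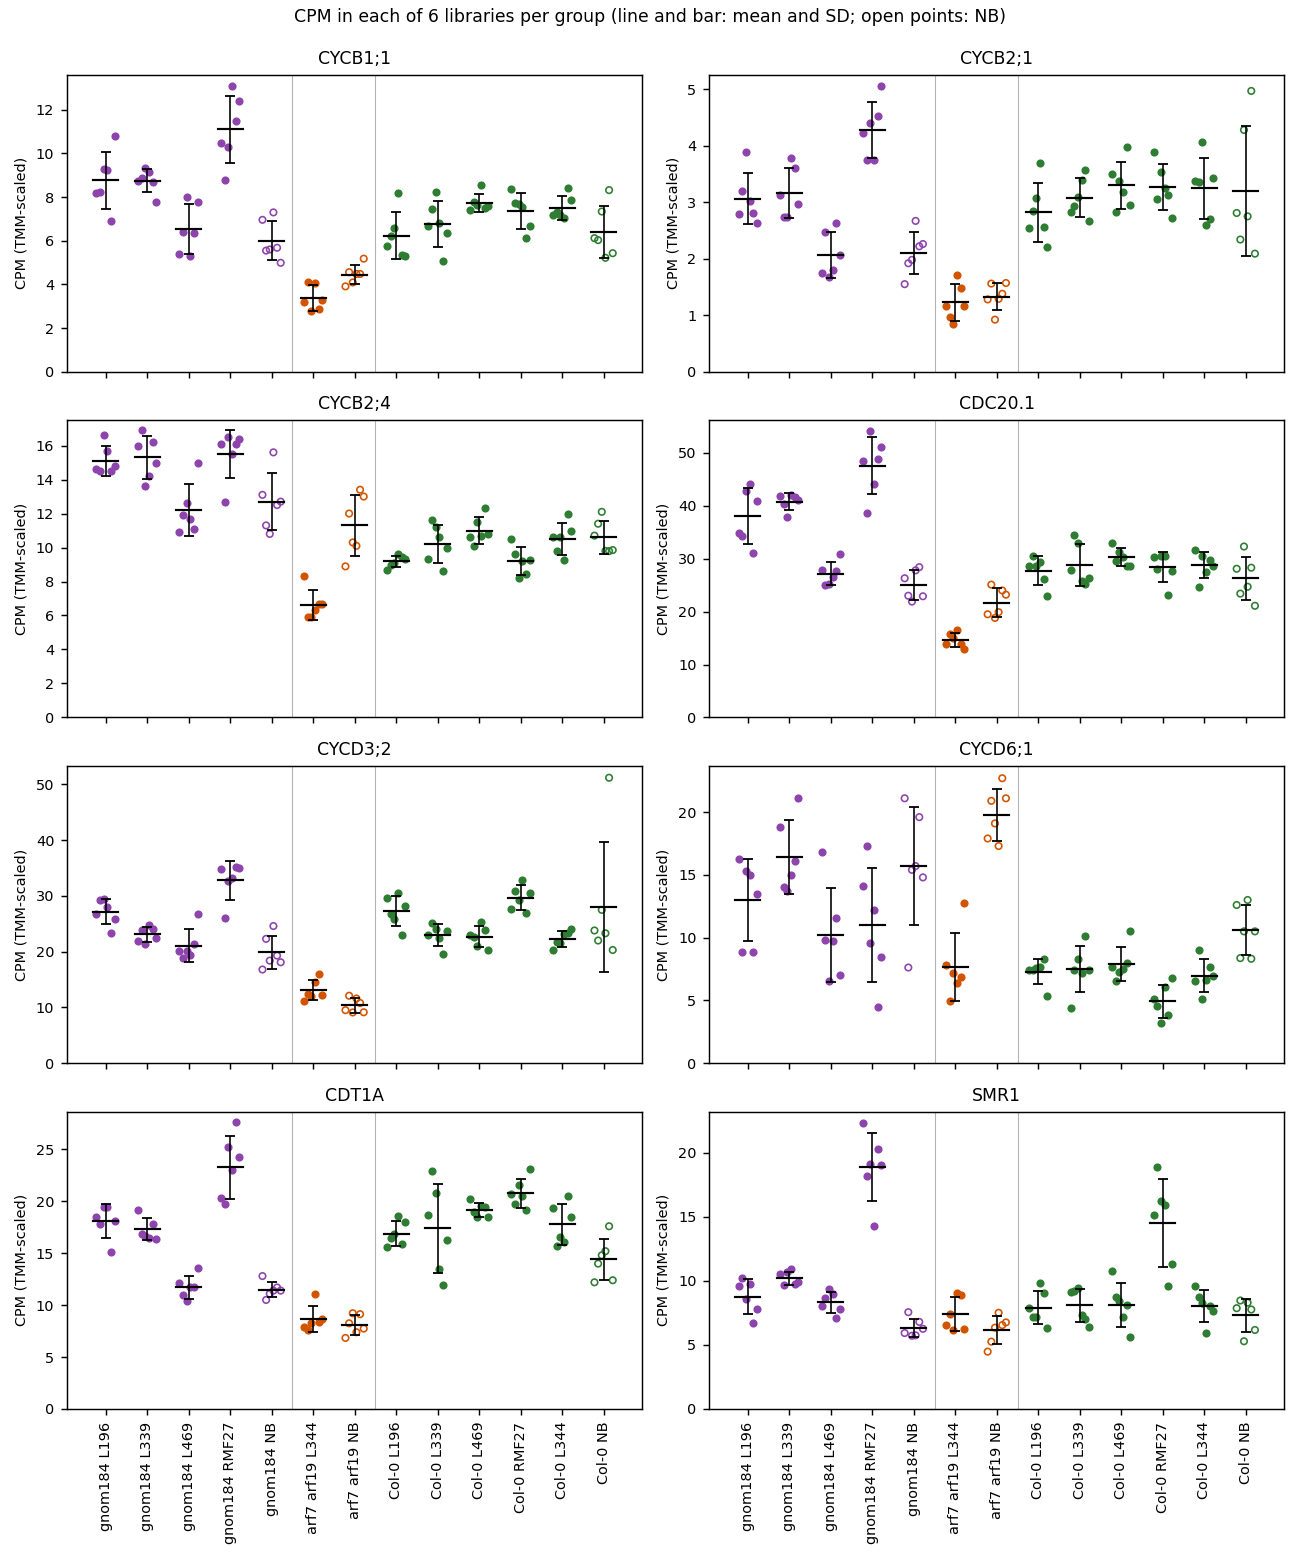
CPM of 8 members in each of 6 libraries per group, with a line and bar for the mean and SD, for *gnom184* (purple), *arf7 arf19* (orange) and Col-0 (green), open points being NB. CDC20.1, CDT1A and SMR1 are highest in *gnom184* with RMF27, and 1 Col-0 NB library is alone at 51.2 CPM for CYCD3;2.

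The B-type CDKs, kinases found in plants and active from late S phase to mitosis, all fell in *arf7 arf19* with L344. CDKB1;1 (AT3G54180) was at 12.5 to 15.3 CPM (median 13.8) with L344, against 16.3 to 20.7 CPM (median 19.1) in NB, with no overlap (log2 fold change -0.44 ± 0.09, adjusted p = 1.29e-05). All 4 rose in *gnom184* with L339, and 2 of 4 rose with L196 and with RMF27. In Col-0, 10 of 64 pairs of this class were called lower and 0 higher by edgeR (1 pair higher at an unadjusted p under 0.05, 0 by DESeq2). The lower calls were 15.6% of pairs, near the 12.8% over all tested genes. AT3G54180 made up 7 of the 10: with L344 it was at 10.4 to 14.4 CPM (median 12.1), against 12.8 to 24.7 CPM (median 14.6) in Col-0 NB (log2 fold change -0.37 ± 0.09, adjusted p = 0.000543). These falls rested on 1 control library, since without Col-0 NB replicate 5 the class had 2 lower and 2 higher calls and AT3G54180 had 0 lower (log2 fold change with L344 -0.22, adjusted p = 0.0514). The call of AT3G54180 with L344 was also lost when only the groups of the contrast were fitted (adjusted p = 0.0661). CDKB2;2 (AT1G20930) was called lower in 3 Col-0 contrasts, and in 2 to 7 when any 1 control library was left out (2 without replicate 5, 7 without replicate 6). Its interaction with L339 in *gnom184* was 0.41 ± 0.13 (adjusted p = 0.0168), a call lost without Col-0 NB replicate 5 (0.33, adjusted p = 0.095).

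CDC20.1, an activator of the APC/C that removes mitotic cyclins at anaphase, and AUR1 (AT4G32830), a mitotic Aurora kinase, moved with the B-type cyclins. CDC20.1 was at 38.7 to 54.1 CPM (median 48.7) in *gnom184* with RMF27, against 21.9 to 28.4 CPM (median 24.7) in *gnom184* NB, with no overlap (log2 fold change 0.93 ± 0.1, adjusted p = 1.47e-16). The L196 libraries (31.1 to 44.2 CPM) and the L339 libraries (37.8 to 42 CPM) were also all above NB, and the L469 libraries (25.1 to 30.8 CPM) were not. With L344 in *arf7 arf19* it was at 12.9 to 16.5 CPM (median 14.5), against 18.8 to 25.1 CPM (median 21.5) in NB, with no overlap (log2 fold change -0.57 ± 0.1, adjusted p = 1.6e-06). The interaction was 0.81 ± 0.14 with RMF27 in *gnom184* (adjusted p = 9.77e-07) and -0.7 ± 0.14 with L344 in *arf7 arf19* (adjusted p = 0.000137). CDC20.1 shares 37.3% of its 31-base words with its neighbour CDC20.2, so the 2 genes may share reads. AUR1 rose by 0.38 ± 0.09 in *gnom184* with RMF27 (18.3 to 25.4 CPM, against 15.2 to 18.6 CPM in NB, adjusted p = 3.32e-05) and fell by 0.41 on the log2 scale in *arf7 arf19* with L344 (9.48 to 12.7 CPM, against 13.1 to 15.6 CPM in NB, adjusted p = 5.08e-05). It shares 17.6% of its 31-base words with a gene on the opposite strand.

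Of the 30 members that rose in *gnom184* with RMF27 and the 21 that fell in *arf7 arf19* with L344, 12 were in both lists (40% of the 30 and 57.1% of the 21). Of all 55 members 38.2% fell in the second contrast and 54.5% rose in the first, so the overlap was close to what the lengths of the 2 lists alone give. These 12 were the 4 cyclins of the B1 group, AT1G76310 of the B2 group, the B-type kinases CDKB1;2 (AT2G38620) and CDKB2;1 (AT1G76540), 3 cyclins of the A2 group, AUR1 and CDC20.1, all with roles from late S phase to mitosis. The 2 contrasts share no library and no strain. Among the 20 members with AACGG, 10 rose and 0 fell in *gnom184* with RMF27 (median log2 fold change 0.37), and among the 35 without it 20 rose and 5 fell (median 0.24). With L344 in *arf7 arf19*, 0 of the 20 rose and 11 fell (median -0.28), and of the 35 without the word 4 rose and 10 fell (median -0.09).

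The A-type cyclins act from S phase to mitosis. In *gnom184*, 5 of 7 rose with each of L196, L339 and RMF27 (class medians 0.28, 0.37 and 0.43), and in *arf7 arf19* with L344, 4 of 7 fell (median -0.3). CYCA1;1 (AT1G44110) was at 6.59 to 9.28 CPM (median 7.88) in *arf7 arf19* with L344, against 11.8 to 16.2 CPM (median 13.7) in NB. The groups did not overlap, and the log2 fold change was -0.79 ± 0.1 (SE, adjusted p = 2.99e-12). AT1G44110 fell also in 8 of 16 Col-0 contrasts, in 4 without Col-0 NB replicate 3 or 5 and in 12 without replicate 4 or 6. With RMF27 in Col-0 it was at 8.67 to 11.7 CPM (median 9.95), against 11.2 to 17.7 CPM (median 12.8) in NB (log2 fold change -0.44 ± 0.1, adjusted p = 5.81e-05). CYCA2;2 (AT5G11300) went the other way from its class in *gnom184* with RMF27, where it fell by 0.27 on the log2 scale (4.07 to 5.63 CPM, against 5.63 to 7.03 CPM in NB, adjusted p = 0.0105). CYCA2;3 (AT1G15570), by contrast, was at 16.2 to 21.3 CPM (median 19) there, against 9.4 to 12.8 CPM (median 11.6) in NB, with no overlap (log2 fold change 0.75 ± 0.1, adjusted p = 3.47e-11). In Col-0 with the same strain AT5G11300 was at 3.58 to 4.87 CPM (median 4.3), against 5.35 to 6.96 CPM (median 6.03) in NB, with no overlap (log2 fold change -0.51 ± 0.1, adjusted p = 3.05e-06).

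The D-type cyclins, which link hormone and nutrient signals to the start of the cycle, were called lower more often than higher in Col-0. Of 144 pairs there, 47 were lower and 7 higher (32.6% and 4.86%, against 12.8% and 12.6% of pairs over all tested genes), and without Col-0 NB replicate 5 the lower calls numbered 29 and the higher calls 8. The class medians of the 16 contrasts lay between -0.29 and 0.02. In mutants 15 of 144 pairs were lower and 14 higher (10.4% and 9.72%, against 10.8% and 12.9%). CYCD2;1 (AT2G22490) was the most often called member of all 55, in 19 of 32 contrasts, always lower. In Col-0 it fell in 12 of 16 contrasts (mean log2 fold change -0.24), and in 11 without Col-0 NB replicate 5. With L264 in Col-0, AT2G22490 was at 24.4 to 31 CPM (median 28.5), against 30.9 to 42.1 CPM (median 34.9) in NB, which overlapped (log2 fold change -0.35 ± 0.06, adjusted p = 4.08e-07). In *gnom184* with RMF27 it was at 26.6 to 30.5 CPM (median 29.3), against 32.9 to 44.3 CPM (median 39.1) in NB, with no overlap (log2 fold change -0.43 ± 0.06, adjusted p = 1.1e-10). AT4G34160, the D-type cyclin that responds to cytokinin, fell in 9 Col-0 contrasts and in 7 without that library.

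CYCD3;2 (AT5G67260) showed how far 1 control library reached. Its 6 Col-0 NB values were 20.3 to 27.5 CPM in 5 libraries and 51.2 CPM in replicate 5. It was called lower in 10 of 16 Col-0 contrasts with all libraries and in 0 of 16 without replicate 5, where its log2 fold change with RMF27 was 0.33 (adjusted p = 0.000874), a call in the upward direction. In *gnom184*, whose controls are other libraries, AT5G67260 was at 26 to 35.1 CPM (median 34.1) with RMF27, against 16.8 to 24.6 CPM (median 18.8) in NB, with no overlap (log2 fold change 0.72 ± 0.1, adjusted p = 2.57e-11). In *arf7 arf19* it rose with L344 by 0.34 ± 0.11 (11.2 to 16 CPM, against 9.1 to 12.1 CPM in NB, adjusted p = 0.00728). The interaction there was 0.66 ± 0.14 (adjusted p = 0.000371), and 0.4 (adjusted p = 0.0249) without Col-0 NB replicate 5.

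CYCD6;1 (AT4G03270), a D-type cyclin used in the formative divisions of the ground tissue, had the largest fall of any member in the 32 strain contrasts. In *arf7 arf19* with L344 it was at 4.97 to 12.8 CPM (median 7.02), against 17.3 to 22.7 CPM (median 20) in NB. The groups did not overlap, and the log2 fold change was -1.37 ± 0.17 (SE, adjusted p = 1.3e-11). In Col-0 with L344 it was at 5.15 to 9.01 CPM (median 6.76), against 8.32 to 13 CPM (median 10.5) in NB (log2 fold change -0.61 ± 0.18, adjusted p = 0.00462). The interaction of -0.76 ± 0.25 (adjusted p = 0.0244) was -0.7 (adjusted p = 0.0532) without Col-0 NB replicate 5. The largest fall in Col-0 came with RMF27, at 3.21 to 6.75 CPM (median 4.83) and a log2 fold change of -1.12 ± 0.19 (adjusted p = 1.01e-07), with no overlap with NB. AT4G03270 fell in 8 of 16 Col-0 contrasts, but in 4 without Col-0 NB replicate 1 and in 3 without replicate 4. It shares 21.4% of its 31-base words with a gene on the opposite strand.

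CYCD4;2 (AT5G10440) was called in 10 of the 32 strain contrasts, each time higher. With L384 in Col-0 it was at 1.69 to 2.18 CPM (median 1.88), against 0.733 to 1.54 CPM (median 1.31) in NB, with no overlap (log2 fold change 0.63 ± 0.17, adjusted p = 0.00264). It rose in 5 Col-0 contrasts, in 2 without Col-0 NB replicate 4 and in 3 without replicate 1, and in *gnom184* with L196 by 0.91 ± 0.17 (adjusted p = 5.07e-06). CYCD5;1 (AT4G37630) rose in *gnom184* with L196, L339 and RMF27, by 0.48, 0.64 and 0.82 on the log2 scale. CYCD4;1 (AT5G65420) was called in 0 of the 32 strain contrasts, and the kinase AT3G48750 in 1: with RMF27 in Col-0 it was at 50.1 to 54 CPM (median 51.3), against 52.1 to 68.9 CPM (median 53.3) in NB (log2 fold change -0.13 ± 0.05, adjusted p = 0.0213), a call lost without replicate 5 (-0.07, adjusted p = 0.231) and when only the groups of the contrast were fitted (adjusted p = 0.156).

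Of the CDK inhibitors, SIM and SMR1, which favour endoreduplication over division, were called only in the upward direction: 14 of 32 pairs in Col-0 and 10 of 32 in mutants (43.8% and 31.2%, against 12.6% and 12.9% of pairs over all tested genes). SIM rose in 12 of 16 Col-0 contrasts, and in 9 to 12 when any 1 control library was left out. With RMF27 in Col-0, SIM was at 51.3 to 74.7 CPM (median 65.9), against 34.4 to 50.9 CPM (median 46.9) in NB, with no overlap (log2 fold change 0.51 ± 0.09, adjusted p = 2.46e-07). In *lbd16-1* with L343 it was at 63 to 79.9 CPM (median 70.9), against 46.1 to 56.5 CPM (median 50.7) in NB, with no overlap (log2 fold change 0.5 ± 0.09, adjusted p = 7.58e-07). SMR1 gave the largest rise of any member in the 32 strain contrasts, with RMF27. In *gnom184* it was at 14.3 to 22.3 CPM (median 19), against 5.71 to 7.55 CPM (median 6.09) in NB (log2 fold change 1.58 ± 0.13, adjusted p = 2.72e-25). In Col-0 it was at 9.62 to 18.9 CPM (median 15.5), against 5.28 to 8.46 CPM (median 7.81) in NB (log2 fold change 1 ± 0.13, adjusted p = 2.89e-12). Neither pair of groups overlapped, and the interaction was 0.58 ± 0.18 (adjusted p = 0.00921). SIM and SMR1 share 27.3% and 34.3% of their 31-base words with annotated genes on the opposite strand, from which reads counted without strand cannot be told apart.

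The KRP proteins inhibit CDK and cyclin complexes, and single members moved in opposite directions. KRP6 (AT3G19150) was called lower in 11 of 16 Col-0 contrasts (9 to 12 with any 1 control library left out), and with L180 it was at 6.08 to 8.76 CPM (median 7.8), against 8.54 to 12.7 CPM (median 11.5) in NB (log2 fold change -0.51 ± 0.11, adjusted p = 4.48e-05). In *gnom184* with RMF27 it was at 6.79 to 7.9 CPM (median 7.3), against 9.91 to 11.4 CPM (median 10.4) in NB, with no overlap (log2 fold change -0.51 ± 0.11, adjusted p = 2.03e-05). KRP4 (AT2G32710) was called higher in 5 Col-0 contrasts, but in 1 without Col-0 NB replicate 1 or 2, in 9 without replicate 3 and in 8 without replicate 6. With L344 it was at 17 to 23.4 CPM (median 21.1), against 13.8 to 19.4 CPM (median 17.3) in NB (log2 fold change 0.27 ± 0.07, adjusted p = 0.00155, and 0.11 when only these groups were fitted), and 38% of its 31-base words lie also in a gene on the opposite strand. KRP1 (AT2G23430), whose window held 6 AACGG words, fell in *gnom184* with L196 and L339, in *arf7 arf19* with L344 and in *nph4-1* with L344 (log2 fold changes -0.5, -0.45, -0.43 and -0.64). KRP2 (AT3G50630), KRP3 (AT5G48820), KRP5 (AT3G24810) and KRP7 (AT1G49620) had 1 or 2 calls each in 32 contrasts.

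In the E2F network, DPB (AT5G03415), the dimerisation partner of E2F factors, and RBR1, the retinoblastoma-related repressor, were called most often, in 5 and 3 of 32 contrasts. DPB was at 14 to 17.2 CPM (median 15.9) in *gnom184* with RMF27, against 19.3 to 21.2 CPM (median 19.7) in NB, with no overlap (log2 fold change -0.35 ± 0.06, adjusted p = 8.7e-09). RBR1 rose in Col-0 with L343, at 52.3 to 60.5 CPM (median 55), against 40.1 to 52.2 CPM (median 51.1) in NB (log2 fold change 0.18 ± 0.06, adjusted p = 0.0179), with no overlap. That call was lost without Col-0 NB replicate 4 (adjusted p = 0.0577) or replicate 5 (adjusted p = 0.139), and when only the groups of the contrast were fitted (adjusted p = 0.101). In *arf7 arf19* with L344, RBR1 fell by 0.18 on the log2 scale (39.1 to 50.1 CPM, against 49 to 59.6 CPM in NB, adjusted p = 0.0196). The adjusted p was 0.11 without the 3 libraries of highest leaf transcript levels, and 0.0683 without *arf7 arf19* NB replicate 5. E2FA (AT2G36010), an activating E2F factor, rose in *gnom184* with L196 and RMF27 by 0.6 and 0.63 on the log2 scale. E2FB and DPA (AT5G02470) were called in 0 of 32 contrasts and E2FC (AT1G47870) in 1.

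The DNA replication genes, like SIM and SMR1, were called only in the upward direction in Col-0. Of 112 pairs, 49 were called higher and 0 lower by edgeR (43.8% and 0%, against 12.6% and 12.8% of pairs over all tested genes), with 0 lower also at an unadjusted p under 0.05 and by DESeq2. The count was 27 without Col-0 NB replicate 1, 32 without replicate 6 and 35 to 55 without each of the other 4. All 7 members rose with L343 (class median 0.39), where 17 members of the whole set rose and 2 fell (17.4% and 17.9% of all tested genes). With RMF27, 6 of the 7 rose, and 11 members of the set rose and 12 fell (21.7% and 22.6% of all tested genes). In *gnom184*, 5 of 7 rose with L196 and with L339, and all 7 with RMF27 (class median 0.58), whereas edgeR called 0 of 7 with L469 and 0 of 7 with L344 in *arf7 arf19* (0 and 1 at an unadjusted p under 0.05). DESeq2 called 0 with L469 and 1 lower with L344. In that last contrast the 7 log2 fold changes lay between -0.19 for MCM5 (AT2G07690) and 0.26 for CDC6A (AT2G29680).

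Of these 7 genes, 4 held an E2F word (TTCCCGC or TTGGCGC, either strand) upstream of their start, which is 57.1% of the class, against 10.9% of the 55 members and 1.91% of all 27561 genes. The windows of 3 are shown for the place of the word close to the start, with the word in capitals, or GCGGGAA and GCGCCAA where it lies on the other strand. MCM2 (AT1G44900) lies on the plus strand at chr1:16969964-16970213, MCM5 on the minus strand at chr2:3527501-3527750 and CDT1A (AT2G31270) on the plus strand at chr2:13328612-13328861.
MCM2: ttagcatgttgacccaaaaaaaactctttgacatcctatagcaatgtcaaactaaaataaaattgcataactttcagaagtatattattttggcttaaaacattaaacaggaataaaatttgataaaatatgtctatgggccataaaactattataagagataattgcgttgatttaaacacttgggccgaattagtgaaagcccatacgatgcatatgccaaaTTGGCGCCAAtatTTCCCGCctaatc
MCM5: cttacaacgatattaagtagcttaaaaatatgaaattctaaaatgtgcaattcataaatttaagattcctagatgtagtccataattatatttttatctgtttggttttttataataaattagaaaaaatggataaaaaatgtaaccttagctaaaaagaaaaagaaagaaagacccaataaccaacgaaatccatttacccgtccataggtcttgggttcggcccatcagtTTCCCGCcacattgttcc
CDT1A: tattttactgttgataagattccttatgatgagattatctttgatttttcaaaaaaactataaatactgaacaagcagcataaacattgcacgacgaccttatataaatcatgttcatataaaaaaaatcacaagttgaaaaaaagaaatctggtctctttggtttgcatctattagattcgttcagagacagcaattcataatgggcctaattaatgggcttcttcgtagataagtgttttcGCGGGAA
The 10 bases TTGGCGCCAA of MCM2 hold the word on both strands and counted as 2 of its 3 matches. MCM7 (AT4G02060), the most often called gene of the class, held none of these words and 1 AACGG.

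**Figure D4:**
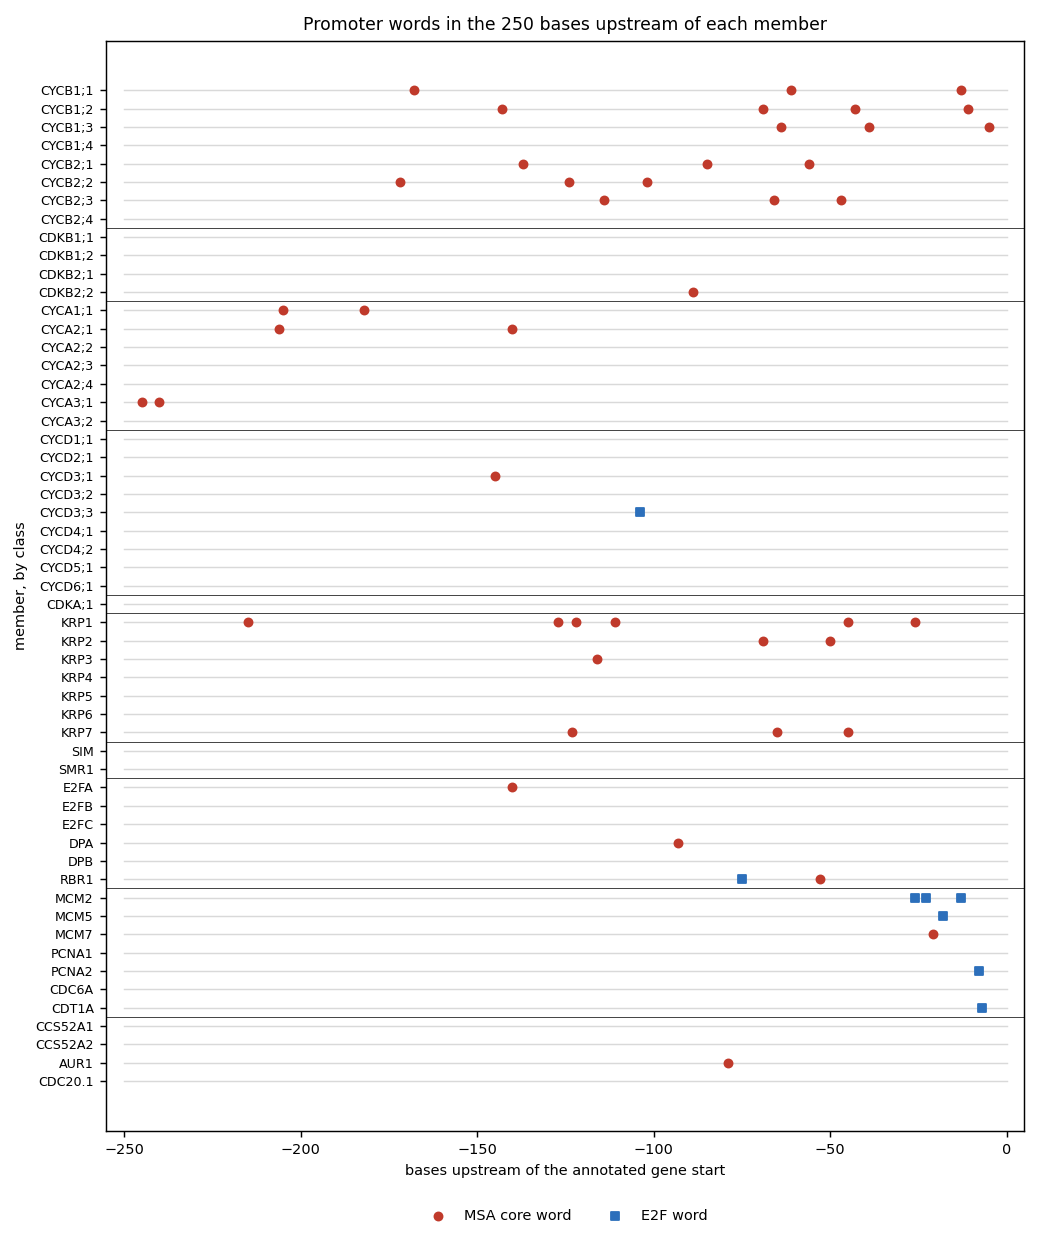
Position of AACGG (MSA core, circles) and of the E2F words TTCCCGC and TTGGCGC (squares), on either strand, in the 250 bases upstream of the annotated start of each of the 55 members, by class. Circles lie mostly in B-type cyclins and KRP genes, and squares close to the start in 4 replication genes.

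MCM7, a subunit of the replicative helicase, rose in 12 of 16 Col-0 contrasts, and in 10 to 16 when any 1 control library was left out, with log2 fold changes between 0.19 and 0.52. With L343 it was at 28.1 to 38.7 CPM (median 32.7), against 19.9 to 29.3 CPM (median 22.6) in NB (log2 fold change 0.52 ± 0.09, adjusted p = 8.28e-07). The overlap came from 1 NB library at 29.3 CPM. In *gnom184* with RMF27 it was at 33 to 40.8 CPM (median 36.2), against 23.2 to 25.4 CPM (median 24.8) in NB, with no overlap (log2 fold change 0.58 ± 0.09, adjusted p = 6.12e-09). MCM2, another subunit, was at 29.4 to 43.2 CPM (median 35.9) in Col-0 with L343, against 23.8 to 29 CPM (median 26.7) in NB, with no overlap (log2 fold change 0.44 ± 0.09, adjusted p = 4.38e-05). MCM2 was called higher in 10 Col-0 contrasts, in 5 without replicate 1, 4 or 6 of Col-0 NB and in 6 without replicate 5. PCNA1 (AT1G07370), the sliding clamp of DNA polymerase, was at 26.6 to 32.6 CPM (median 29.7) in *gnom184* with RMF27, against 17.8 to 23.7 CPM (median 18.9) in NB, with no overlap. In Col-0 it was called higher in 6 contrasts, but in 1 without Col-0 NB replicate 1 or 6 and in 11 without replicate 5.

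CDT1A, which loads the helicase at origins, gave the largest changes of the class. In *gnom184* with RMF27 it was at 19.7 to 27.6 CPM (median 23.6), against 10.5 to 12.8 CPM (median 11.4) in NB, with no overlap (log2 fold change 1.02 ± 0.1, adjusted p = 1.03e-18). All L196 libraries (15.1 to 19.5 CPM) and all L339 libraries (16.4 to 19.2 CPM) were above NB as well, and the L469 libraries (10.4 to 13.6 CPM) were not. In Col-0 with RMF27 it was at 19.2 to 23.1 CPM (median 20.6), against 12.2 to 17.6 CPM (median 14.4) in NB (log2 fold change 0.54 ± 0.1, adjusted p = 1.24e-06). The groups did not overlap, and the interaction was 0.48 ± 0.14 (adjusted p = 0.00577). CCS52A1 (AT4G22910), an APC/C activator that promotes endoreduplication, was not a replication gene but rose in similar groups: in *gnom184* with RMF27 it was at 18.6 to 23.3 CPM (median 22.1), against 11.1 to 14.6 CPM (median 12.7) in NB (log2 fold change 0.77 ± 0.07, adjusted p = 9.55e-22), and in Col-0 with RMF27 at 22 to 24.4 CPM (median 22.7), against 14.7 to 18.2 CPM (median 17.2) in NB (log2 fold change 0.44 ± 0.07, adjusted p = 5.08e-09). CCS52A1 rose in 8 Col-0 contrasts, in 5 without replicate 1 or 3 of Col-0 NB, and its paralog CCS52A2 (AT4G11920) in none of them.

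Without bacteria, *arf7 arf19* roots had fewer transcripts of 23 members and more of 5 than Col-0 roots (25.7% and 20.8% of all tested genes), with a member median of -0.17. Leaving out replicate 1 or replicate 3 of *arf7 arf19* NB gave 16 lower, with 8 and 9 higher. In *gnom184*, 8 members were lower and 8 higher (17.5% and 14.5%). These became 7 lower and 5 higher without *gnom184* NB replicate 3, and 3 lower and 2 higher when only the 2 groups were fitted. In *nph4-1*, 2 were lower and 1 higher (7.07% and 6.07%), and in *lbd16-1* 1 and 0 (4.16% and 2.45%). Over the 4 mutants this made 14 higher and 34 lower of 220 pairs, against 11% and 13.6% over all tested genes. AT5G67260 was at 9.1 to 12.1 CPM (median 10.1) in *arf7 arf19* NB, against 20.3 to 51.2 CPM (median 23.5) in Col-0 NB, and its log2 fold change of -1.43 ± 0.1 (SE, adjusted p = 1.95e-28) was -1.15 (adjusted p = 7.78e-24) without Col-0 NB replicate 5. The falls of AT5G67260 in *nph4-1* (-0.49) and *lbd16-1* (-0.37) were lost without that library (-0.24, adjusted p = 0.07, and -0.12, adjusted p = 0.65). AT2G17620 was at 0.922 to 1.57 CPM (median 1.33) in *arf7 arf19* NB, against 2.09 to 4.97 CPM (median 2.78) in Col-0 NB (log2 fold change -1.26 ± 0.16, adjusted p = 3.04e-12). CDT1A was at 6.84 to 9.22 CPM (median 7.99) there, against 12.2 to 17.6 CPM (median 14.4) in Col-0 NB (log2 fold change -0.83 ± 0.1, adjusted p = 4.37e-12). Without Col-0 NB replicate 5 these 2 values were -1.08 and -0.74. Neither overlapped Col-0 NB in *arf7 arf19*. By class, 5 of 8 B-type cyclins, 4 of 7 replication genes, 3 of 7 KRP genes and all 4 APC/C activator and Aurora genes were lower in *arf7 arf19* NB. Without Col-0 NB replicate 5 the counts were 4, 2, 3 and 2, with AUR1 (adjusted p = 0.0613) and CDC20.1 (adjusted p = 0.068) no longer called. Without Col-0 NB replicate 3, 1 replication gene was called lower.

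CYCD6;1 (AT4G03270) and AT4G34160 went the other way in axenic *arf7 arf19* and *gnom184*. In axenic *nph4-1* and *lbd16-1* neither gene was called higher, and AT4G03270 was at -0.25 and -0.38 on the log2 scale, not called. AT4G03270 was at 17.3 to 22.7 CPM (median 20) in *arf7 arf19* NB, against 8.32 to 13 CPM (median 10.5) in Col-0 NB, with no overlap (log2 fold change 0.89 ± 0.17, adjusted p = 2.61e-06). In *gnom184* NB it ranged more widely, from 7.62 to 21.1 CPM (median 15.5), and the log2 fold change was 0.56 ± 0.17 (adjusted p = 0.00626). AT4G34160 was at 54 to 80.6 CPM (median 70.4) in *arf7 arf19* NB and 51 to 85.8 CPM (median 67.4) in *gnom184* NB, against 46.6 to 56.9 CPM (median 50.9) in Col-0 NB. These groups overlapped Col-0 NB, and the log2 fold changes were 0.42 ± 0.08 and 0.44 ± 0.08 (adjusted p = 8.46e-06 and 6.42e-06). Without Col-0 NB replicate 5, all 4 of these calls held, at 0.86 and 0.51 for the first gene and 0.47 and 0.48 for the second. The 4 axenic contrasts share the Col-0 NB libraries, so their agreement with each other is not independent. Lower pairs numbered 34 in all and 22 without Col-0 NB replicate 5.

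**Figure D5:**
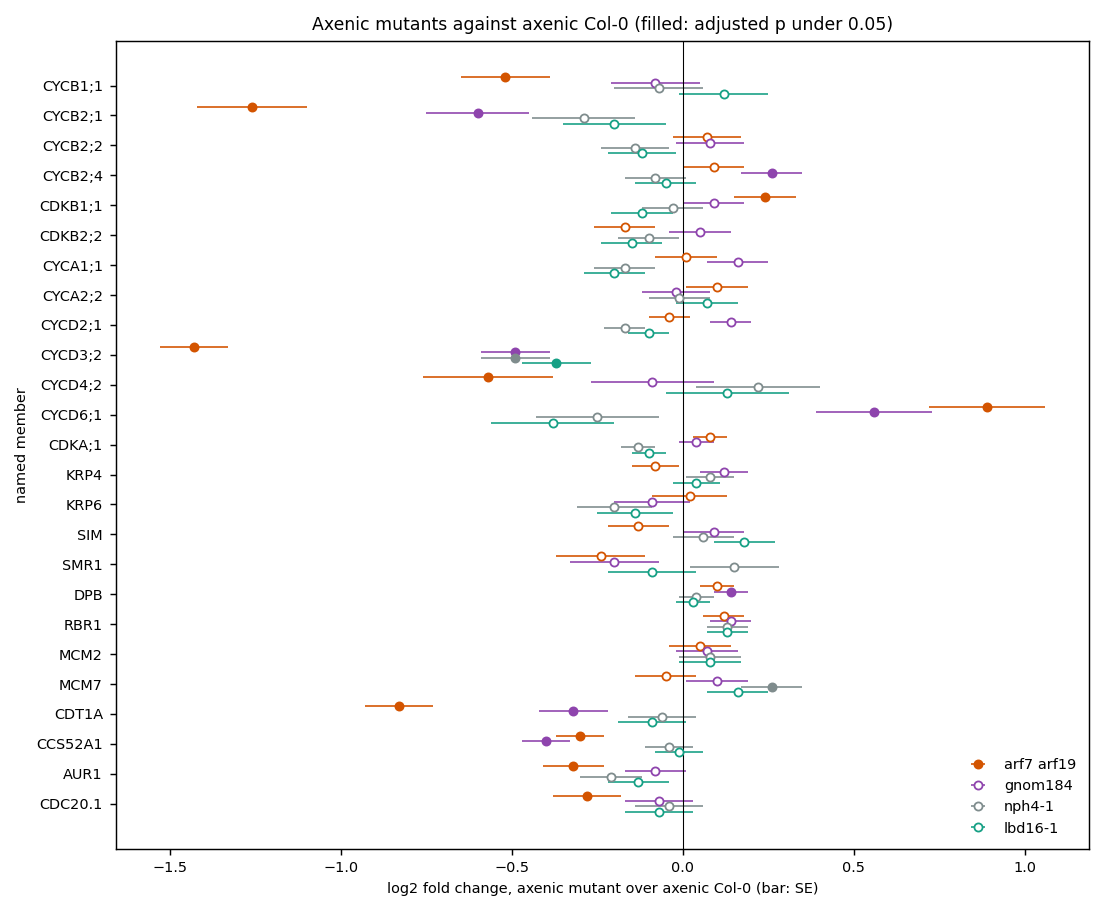
log2 fold change with SE of the named members in each axenic mutant over axenic Col-0, filled where the adjusted p is under 0.05. CYCD3;2 at -1.43 and CYCB2;1 at -1.26 in *arf7 arf19* lie farthest to the left and CYCD6;1 at 0.89 farthest to the right.

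The *nph4-1* and *lbd16-1* mutants gave few calls with bacteria. In *nph4-1*, 1 member rose and 3 fell with L344 (11.8% and 11.2% of all tested genes), and edgeR called 0 with L359 and 0 with RCL115 (5 and 1 at an unadjusted p under 0.05, 0 by DESeq2). Of all tested genes 7.68% rose and 5.57% fell with L359, and 0.00924% rose and 0% fell with RCL115. In *lbd16-1*, 7 rose and 3 fell with L343 (13.1% and 11.4% of all tested genes, against 12.7% and 5.45% of members). With RMF8, 2 rose and 5 fell (15% and 12.2% of all tested genes), and at most 4 were called with L76, L384 and L412. With L180, L359 and RMF217 edgeR called 0 (4 to 8 at an unadjusted p under 0.05, at most 1 by DESeq2). In these 3 contrasts 11.4%, 9.04% and 3% of all tested genes rose and 10.6%, 7.22% and 1.85% fell. SMR1 was at 8.26 to 10.7 CPM (median 9.19) in *lbd16-1* with L343, against 5.11 to 7.89 CPM (median 6.96) in NB, with no overlap (log2 fold change 0.46 ± 0.13, adjusted p = 0.00245). AT5G11300 fell in the same contrast by 0.44 (3.56 to 5.98 CPM, against 5.73 to 7.81 CPM in NB, adjusted p = 6.83e-05), with -0.74 and -0.12 within the low and the high range of library numbers.

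Members of some classes varied together across groups, and so did members of different stages. Over the 37 group means, the median Pearson correlation between pairs was 0.86 among the replication genes, 0.77 among the B-type cyclins and 0.71 among the B-type CDKs, against 0.07 among the D-type cyclins, 0.12 among the KRP genes and 0.38 over all 1485 pairs of members. With all other tested genes the members had a median of 0.01. Over the deviations of the 222 libraries from their group means the values were smaller, at 0.51 for replication genes, 0.36 for B-type cyclins and 0.08 for D-type cyclins. Between B-type cyclins and replication genes, which act at different stages, the median was 0.7 over groups and 0.4 over libraries. Within the E2F, DP and RBR1 class, and within the APC/C and Aurora class, it was 0.28 over groups. The closest pair was CYCB1;2 (AT5G06150) and CDC20.1 (0.97 over groups and 0.65 over libraries), followed by AT5G06150 and AT2G38620 (0.95 and 0.5). These values are descriptions, since the points share libraries and depth.

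Other genes of the same processes were read from lists of genes outside the 55. Of 16 other replication genes, such as further MCM and ORC subunits, 59 of 256 pairs were higher and 0 lower in Col-0 (23% and 0%, against 12.6% and 12.8% of pairs over all tested genes), with 12 of 16 higher with L343. In mutants 23 were higher and 6 lower (8.98% and 2.34%), which was below the shares over all tested genes (12.9% and 10.8%). Of 17 other mitosis and cytokinesis genes, 13 fell and 0 rose in *arf7 arf19* with L344 (median -0.5), while 14 rose and 0 fell in *gnom184* with RMF27 (median 0.44). In these 2 contrasts 14.8% of all tested genes fell and 32.7% rose. Of 8 tested DNA damage response genes, 4 rose and 2 fell in *gnom184* with RMF27 (median 0.32) and 0 rose and 2 fell in *arf7 arf19* with L344 (median -0.2). In the first of these contrasts 32.7% of all tested genes rose and 28.8% fell, and in the second 19.6% and 14.8%.

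Marker genes of root zones were read in the same groups, and their direction did not always follow that of the members. A summed level is weighted toward the most abundant genes of a list, so it need not move with the counts and medians of genes. All 5 root meristem regulators (PLT1, PLT2, WOX5, SCR and SHR) were detected in every group: their summed level was 80.5 to 100 CPM in *gnom184* with RMF27, against 56.2 to 70.2 CPM in *gnom184* NB, and 4 of 5 rose (median 1.73). In *arf7 arf19* NB the sum was 43.9 to 53.4 CPM, against 68.2 to 74.2 CPM in Col-0 NB, and 5 of 5 fell (median -2.36). In *arf7 arf19* with L344 the sum was 53.2 to 67.2 CPM and 3 of 5 rose (median 0.44), while 21 members fell. The 10 genes of differentiated root cells summed to 9280 to 12500 CPM in *gnom184* with RMF27, against 19600 to 25400 CPM in *gnom184* NB, with 5 higher and 5 lower. With L344 in *arf7 arf19* they summed to 22100 to 29000 CPM, against 25000 to 31700 CPM in NB, with 6 higher and 1 lower (median 0.35). In axenic *arf7 arf19* and *gnom184*, 6 of 10 were lower than in Col-0 NB and 3 and 2 were higher (medians -0.5 and -0.51), while their sums were 25000 to 31700 and 19600 to 25400 CPM, against 15000 to 22100 CPM in Col-0 NB. In Col-0 with bacteria 38.1% of pairs of these genes were higher and 3.75% lower, against 12.6% and 12.8% of pairs over all tested genes. Of all tested genes, 32.7% rose and 28.8% fell in *gnom184* with RMF27. With L344 in *arf7 arf19*, 19.6% rose and 14.8% fell, and with L339 and L196 in *gnom184*, 14.9% and 17.3% fell. Lower than in axenic Col-0 were 25.7% in axenic *arf7 arf19* and 17.5% in axenic *gnom184*, and 20.8% and 14.5% were higher. The 5 leaf genes summed to over 2000 CPM in 3 libraries, replicate 5 of *arf7 arf19* with L344 (5310 CPM), replicate 6 of *gnom184* with L469 (3070 CPM) and replicate 4 of *gnom184* with RMF27 (3000 CPM), and to at most 1920 CPM in any other. In *gnom184* with L339 the sum was 312 to 488 CPM and with L196 392 to 796 CPM, against 392 to 1430 CPM in *gnom184* NB, and 4 of 5 and 2 of 5 leaf genes fell (medians -0.94 and -0.53). In *arf7 arf19* with L344 it was 451 to 5310 CPM, against 639 to 1160 CPM in *arf7 arf19* NB, and 2 of 5 rose (median 0.61). In axenic *arf7 arf19* and axenic *gnom184*, 3 of 5 leaf genes were higher than in Col-0 NB (medians 1.12 and 0.84), where the sum was 329 to 523 CPM. Without the 3 libraries of highest leaf sums no count of member calls given above for these contrasts moved by more than 1.5-fold. The part of root zone composition and of leaf transcripts in the member values was not tested.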

How the data were processed

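RNA-seq of whole roots gave 222 libraries. The deposited matrix holds estimated counts per gene, which the authors made from reads trimmed with fastp 0.20.1 and quantified with Salmon 1.6.0 against Ensembl Plants transcripts, summed to genes. The values were whole numbers, so rounding changed nothing, and whether strand was used is not given in the sources used here. Groups came from the genotype and treatment labels. The labels mark 6 libraries per group as separate samples and do not give which repeat of the experiment each came from.

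Counts were filtered with filterByExpr, scaled by TMM and fitted in 1 quasi-likelihood model of 37 groups with edgeR 4.0.16 in R 4.3.3 (limma 3.58.1 loaded), with Benjamini-Hochberg adjustment over 21635 genes within each contrast and a threshold of 0.05. The SE is the log2 fold change divided by the square root of F. The fit was tested on simulated data. DESeq2 1.42.0, other filters and scalings, stricter thresholds and removal of each control library were alternatives. Library pairs within groups differed beyond counting noise (lowest chi-square per degree of freedom 3.31). Named members were the 2 of each class called in most strain contrasts and the 4 called members of largest change in each family of contrasts, and others were named after their values were seen. The members and lists were chosen with earlier results of these data known. Upstream windows of 250 bases and shared 31-base words came from RefSeq's TAIR10.1 annotation, since the matrix carries no coordinates. All columns were used.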

Additional observations from a re-analysis of the deposited data

Results flagged for a closer look

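Among the named members, 85 groups of 6 libraries were searched for a library far from the other 5 by Dixon's criterion, and 7 were found, where chance gives about 1 in 20 groups. CYCD3;2 in Col-0 NB replicate 5 was at 51.2 CPM, against 20.3 to 27.5 CPM in the others, and the same library was highest for CDKB1;1 (24.7 CPM) and CDKA;1 (68.9 CPM). MCM7 in Col-0 NB replicate 3 was at 29.3 CPM. CYCD6;1 in *arf7 arf19* L344 replicate 6, a library of open number, was at 12.8 CPM, against 4.97 to 7.86 CPM in the others. RBR1 in *arf7 arf19* L344 replicate 5, which had the highest leaf transcript sum, was at 39.1 CPM, and AUR1 in Col-0 RMF8 replicate 5 was at 16.1 CPM.

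By the interaction test in edgeR, a strain moved a gene differently in a mutant and in Col-0 for 18 named members. Each is given in the contrast of its largest called difference, and some were called in further contrasts. With RMF27 in *gnom184* the differences on the log2 scale were 1 for CYCB2;1, 0.81 for CDC20.1, 0.67 for CYCB1;1, 0.63 for CYCA1;1, 0.6 for AUR1, 0.58 for SMR1, 0.48 for CDT1A, 0.33 for CCS52A1 and -0.27 for DPB. With L339 in *gnom184* they were 0.53 for CDKB1;1 and 0.41 for CDKB2;2. With L344 in *arf7 arf19* they were -0.76 for CYCB2;4, -0.76 for CYCD6;1, 0.66 for CYCD3;2, -0.63 for CYCB2;2, -0.45 for MCM2, -0.38 for MCM7 and -0.26 for RBR1. Without Col-0 NB replicate 5, CYCD6;1 (adjusted p = 0.0532, edgeR), CDKB1;1 (adjusted p = 0.0554, edgeR), CDKB2;2 (adjusted p = 0.095, edgeR) and RBR1 no longer passed. The call of RBR1 was also lost without Col-0 NB replicate 4, and that of MCM7 without replicate 6.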

How the results depend on the processing

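None of the 453 called pairs of member and contrast changed sign in those of the 40 other settings that refitted the contrast. The stricter thresholds kept the main fold changes, so no sign could change there. Removal of a control library refitted only the contrasts that use its group. CYCD3;2 gained an upward call in Col-0 without replicate 5. Under DESeq2, other scalings and other filters, counts of 10 or more calls per family or single contrast stayed within 1.5 times, while axenic *arf7 arf19* had 8 higher under the stricter filter and the APC/C and Aurora genes 5 lower in Col-0 under DESeq2. Fitting only the groups of each contrast gave fewer calls: Col-0 48 higher and 45 lower, interaction 25 and 8, axenic 6 and 19 (*gnom184* 2 and 3), Col-0 L343 10 higher, the *gnom184* interactions 1 (L196) and 7 (L339), and the *arf7 arf19* interaction 8 lower. At an adjusted p under 0.01 there were 49 higher and 57 lower in Col-0, 31 lower in mutants, 33 and 8 in interactions, 8 higher in axenic mutants, 11 higher with L343, 4 (L196) and 9 (L339) in the *gnom184* interactions, 7 lower in the *arf7 arf19* interaction and 15 lower in axenic *arf7 arf19*. With a log2 fold change of at least 1 as well, 1 higher and 1 lower remained in Col-0 (both with RMF27, 0 with L343), 3 and 1 in mutants (3 higher in *gnom184* with RMF27, 0 with L196 or L339, 1 lower in *arf7 arf19*), 0 and 0 in interactions, and 0 and 2 in axenic mutants (2 in *arf7 arf19*). Without the 2 libraries of open number, the *gnom184* L196 interaction had 7. Leaving out 1 control library at a time gave 55 to 102 higher and 56 to 120 lower in Col-0 (lowest without replicate 1 and replicate 5), 93 to 109 and 49 to 59 in mutants, 30 to 71 and 11 to 20 in interactions, and 11 to 18 and 22 to 37 in axenic mutants. In single contrasts it gave 14 to 20 higher with L343, 8 to 11 higher and 11 to 14 lower with RMF27 in Col-0, 24 to 29, 20 to 30 and 28 to 31 higher with L196, L339 and RMF27 in *gnom184* (interactions 4 to 16, 5 to 20 and 19 to 25), 18 to 24 lower in *arf7 arf19* with L344 (interaction 10 to 16) and 16 to 23 lower in axenic *arf7 arf19*. Leaving out the 3 libraries of high leaf transcripts was chosen after seeing the data. Over 48 named pairs, 376 refits under other settings and 328 without 1 library kept direction and side of the threshold, and 8 of each kind lost the call. The cause was not tested. No paired analysis was possible because the replicate numbers were given in accession order and pair no libraries. With the range of the library number as a covariate, calls numbered 96 higher and 91 lower in Col-0, 107 and 55 in mutants, 54 and 16 in interactions, and 15 and 36 in axenic mutants.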
